A study of Mus musculus with 14 samples.

Results

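The genes described here are 33 markers of the cells of brain vessels and of the covering membranes of the brain. They were listed by name and matched by symbol in the deposited gene table, and they are 33 of the 55422 entries of the count table. The matching used no measured value, but the genes were chosen with earlier results of these data known. By known cell type they are 15 endothelial genes (Cldn5, Pecam1, Flt1, Tek, Kdr, Cdh5, Slco1a4, Slc2a1, Abcb1a, Ly6c1, Esam, Egfl7, Ocln, Mfsd2a and Itm2a), 8 mural genes (Pdgfrb, Rgs5, Acta2, Tagln, Myh11, Vtn, Anpep and Notch3) and 10 fibroblast genes (Dcn, Lum, Col1a1, Col1a2, Col3a1, Igf2, Slc6a13, Igfbp2, Ptgds and Ogn). All 33 passed the filter on low counts in each comparison.

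RNA was sequenced from the brainstem of 7 mice, which carried TH-Cre and Slc6a2-eGFP/Rpl10a on a C57Bl/6 background. Slc6a2-eGFP/Rpl10a puts a green fluorescent tag on a ribosomal protein under control of the noradrenaline transporter gene, so that noradrenergic ribosomes and the RNA on them can be captured with an antibody. TH-Cre puts Cre recombinase under control of the tyrosine hydroxylase gene, which makes an enzyme of noradrenaline synthesis. At 2 to 3 months of age, 4 mice (B, C, L and M) were infused in the locus coeruleus, the main noradrenergic nucleus, with P364S mutant human tau, and 3 mice (H, I and K) with EYFP, a fluorescent protein. Each animal gave a total homogenate (pre-IP) and an immunoprecipitate (IP), which makes 4 tau pre-IP, 3 EYFP pre-IP, 4 tau IP and 3 EYFP IP libraries. Both treatment groups carry both transgenes, and no library comes from an animal without infusion. The tag is meant for noradrenergic neurons, and vessel cells and fibroblasts are not its target. Whether the captured neurons express any of the 33 genes was not tested.

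Endothelial cells line the vessels. In brain they form the blood-brain barrier, with tight junctions such as those built by Cldn5 and Ocln, carriers such as the glucose transporter Slc2a1, and efflux pumps such as Abcb1a. Pericytes and smooth muscle cells, together called mural cells, wrap these vessels. They are recruited by platelet-derived growth factor acting on Pdgfrb and kept through Notch3. Fibroblasts of the meninges and of the space around larger vessels make collagens and small proteoglycans such as Dcn, Lum and Ogn. Several listed genes are shared with other brain cells: Slc2a1 is also made by astrocytes, Ptgds by oligodendrocytes, and Igf2, Igfbp2 and Slc6a13 by cells of the choroid plexus or other glia.

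Total counts ran from 41843489 to 65664551 per library, so that 3 counts, the floor used here, were worth 0.0457 to 0.0717 CPM (counts scaled to a library total of 1e6). The RNA integrity number was 7.7 to 9 in 13 libraries and 4.2 in EYFP IP of animal I. Counts on the human tau construct were 3527 to 47177 in the tau libraries, 2 to 18 in those of EYFP animals H and I, and 408 and 398 in the pre-IP and IP of EYFP animal K. Animal K thus stands apart from its group, and the tau comparisons are given with and without it. The summed CPM of 12 noradrenergic genes was 399 to 460 in pre-IP, 1036 to 7003 in tau IP and 551 to 618 in EYFP IP. The RNA concentration was 0.1 to 0.8 ng per microlitre in tau IP and 0.7 to 2.8 in EYFP IP. Choroid plexus RNA also differed between animals, with Ttr, its most abundant transcript, at 116 and 23.3 CPM in pre-IP of tau animals L and M and at 763 to 1595 in the other 5. The summed CPM of 7 pituitary genes in pre-IP was 5848 and 850 in tau animals L and M and 765 in EYFP animal K. It was 15.3 to 103 in animals B, C, H and I. Library numbers start at 17 for animals K, L and M and end at 11 for animals B, C, H and I.

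The start regions of 3 members are shown for the genes that the IP comparison turns on. Rgs5 and Notch3 are both mural genes that moved in opposite directions in the IP, and Ogn had the smallest adjusted p of the 33 there. Each line gives the 250 bases before a RefSeq start (GRCm38.p6), read 5′ to 3′ on the gene's strand. Capitals mark GGAA or its reverse complement TTCC, the core bound by ETS factors, a family prominent in vessel cells. The windows are chr1:169655251-169655500 (plus strand) for Rgs5, chr17:32166891-32167140 (minus strand) for Notch3 and chr13:49607765-49608014 (plus strand) for Ogn.
Rgs5: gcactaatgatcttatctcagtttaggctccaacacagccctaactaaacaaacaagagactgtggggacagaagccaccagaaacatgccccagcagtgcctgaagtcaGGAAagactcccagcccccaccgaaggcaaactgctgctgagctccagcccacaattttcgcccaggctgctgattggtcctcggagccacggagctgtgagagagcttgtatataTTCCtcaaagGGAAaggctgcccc
Notch3: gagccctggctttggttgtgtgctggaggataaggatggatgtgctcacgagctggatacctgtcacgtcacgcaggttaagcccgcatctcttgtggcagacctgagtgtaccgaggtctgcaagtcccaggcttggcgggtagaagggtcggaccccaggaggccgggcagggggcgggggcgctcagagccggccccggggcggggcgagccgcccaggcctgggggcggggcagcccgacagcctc
Ogn: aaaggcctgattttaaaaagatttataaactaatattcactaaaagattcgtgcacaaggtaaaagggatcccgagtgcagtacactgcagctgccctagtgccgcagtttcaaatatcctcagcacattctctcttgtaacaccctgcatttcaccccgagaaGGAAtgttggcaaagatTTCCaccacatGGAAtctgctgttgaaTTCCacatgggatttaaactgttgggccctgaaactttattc
The letters GGAA, on either strand, occurred 3 times before Rgs5, 0 times before Notch3 and 4 times before Ogn. RefSeq promoters were found for 24 of the 33 members, with 34 starts, and 31 of these 34 windows (91.18%) held GGAA on either strand, against 93.45% of 32841 windows of the same length over all genes. The CArG box, the binding site of serum response factor in smooth muscle genes, was found in 1 of 34 windows (2.94%), at an Igf2 start, and in 1.47% of all windows. Only the strict form CCWWWWWWGG, with W for A or T, was searched. It was in 0 of the 5 mural windows, those of Acta2, Anpep, Notch3, Rgs5 and Vtn. The Acta2 window held ccctatatgg and ccttgtttgg, which each miss the strict form by 1 letter and were not counted. Pdgfrb, Tagln and Myh11 had no promoter to search, so the 0 does not show that mural genes lack the site. The windows of the members therefore held either motif at a share close to that of all genes, and a match is a description of letters only.

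Levels between genes are compared as RPKM (CPM divided by the exonic length in kilobases) in the 7 pre-IP libraries. Ptgds, the enzyme that makes prostaglandin D, had the highest median, 1353 RPKM (range 1203 to 1852). Igfbp2, a secreted binder of insulin-like growth factors, came next at 33.9 (25.8 to 70.5). No value of Ptgds overlapped any of Igfbp2, whereas the members that follow, from Vtn at 16.4 (14.7 to 29.6) through Slc2a1 at 14.5 (13 to 20.7) and Itm2a at 13.4 (12.6 to 16.9), overlapped their neighbours in the order. Among mural genes the order after Vtn, a secreted adhesion protein, was Acta2, the actin of smooth muscle (11.1), Rgs5, a G-protein regulator of pericytes (1.82), Pdgfrb (1.78) and Notch3 (1.03). Rgs5 and Pdgfrb had overlapping ranges, 1.34 to 1.92 and 1.24 to 2.28 RPKM. The lowest medians were those of Tagln, a smooth muscle cytoskeletal protein (0.146), Abcb1a (0.103) and Anpep, an aminopeptidase of pericytes (0.101), whose counts ran from 0 to 42 per library. The levels of Tagln, Abcb1a and Notch3, and so their places in the order, are uncertain for reasons given with each gene below. In bulk tissue, fewer cells of a type and less RNA per cell cannot be told apart.

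The IP against pre-IP comparison asks which of these transcripts the immunoprecipitation keeps or loses. Of the 33 members, 5 were higher in IP (Abcb1a, Ogn, Rgs5, Egfl7 and Dcn) and 3 were lower (Pdgfrb, Notch3 and Slc2a1), at an adjusted p under 0.05 in edgeR's quasi-likelihood test over 18792 genes. That is 24.2% of the members, against 31% of all genes tested. All genes were called higher in 16.3% and lower in 14.7% of cases. In this fit, which does not pair the fractions of an animal, the share called among the members was not above that of all genes. In the paired fit given below it was above. Fitted log2 fold changes were negative for 22 of the 33 members, against 50.3% of all genes, with a median of -0.19 against 0.00 over all genes. Without animal B, 17 were negative and the median was -0.07.

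Among the 15 endothelial genes, Abcb1a and Egfl7 rose and Slc2a1 fell, with a class median of -0.14. Abcb1a (ENSMUSG00000040584.8, chr5:8660077-8748575, plus strand) encodes P-glycoprotein, which pumps drugs out of the endothelium. Its level in pre-IP was 1.21, 0.827, 0.644 and 0.484 CPM in tau animals B, C, L and M and 0.550, 0.281 and 0.565 in EYFP animals H, I and K. In IP it was 3.59, 2.20, 1.03 and 1.01 in the tau animals and 1.2, 1.80 and 1.15 in the EYFP animals. It was higher in IP in 7 of 7 animals, although pre-IP of animal B lay above 4 of the IP values. The change was 1.5 ± 0.35 on the log2 scale (SE, adjusted p = 0.00436), a 2.83-fold rise of a gene near the bottom of the list in level. Its near-identical neighbour Abcb1b can share reads with it, and 10.09% of its exonic bases lie in the antisense entry Gm42686, which held at most 0.621 CPM, so that its level is uncertain.

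Egfl7 (ENSMUSG00000026921.19, chr2:26580014-26593120, plus strand) is secreted by endothelial cells and hosts a vascular microRNA in an intron. Pre-IP libraries held 40.5, 34.0, 44.8 and 42.5 CPM in tau animals B, C, L and M and 44.0, 39.3 and 34.9 in EYFP animals H, I and K. IP libraries held 86.1, 65.4, 60.3 and 55.0 in the tau animals and 57.8, 40.0 and 43.4 in the EYFP animals. Tau IP lay above every pre-IP library, and EYFP animals I and K lay within the pre-IP range. The fitted change was 0.58 ± 0.15 (SE, edgeR adjusted p = 0.00824), with 6 of 7 animals higher after TMM scaling.

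Slc2a1 (ENSMUSG00000028645.11, chr4:119108711-119137983, plus strand) had 49, 45.6, 52.9 and 65.9 CPM in pre-IP of tau animals B, C, L and M and 51.0, 46.1 and 72.7 in EYFP animals H, I and K. The IP values were 23.3, 33.3, 37.9 and 44.4 in the tau animals and 48.6, 46.7 and 52.5 in the EYFP animals. Tau IP was below all pre-IP libraries, while EYFP IP overlapped them. The change of -0.41 ± 0.15 (SE, edgeR adjusted p = 0.0433) was lost without any 1 of animals B, C, K, L or M, with adjusted p from 0.0689 to 0.103. Esam, a junctional adhesion molecule, was at 7.26, 9.17, 9.11 and 9.90 CPM in pre-IP of the tau animals and at 9.08, 8.12 and 11.3 in the EYFP animals, in the same order. In IP it was at 2.88, 6.97, 6.55 and 7.40 and at 7.17, 7.0 and 8.56. It was lower in IP in 7 of 7 animals, with overlapping fractions, and missed the threshold (-0.44 ± 0.17, edgeR adjusted p = 0.0663).

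The other 11 endothelial genes did not pass the test, and their estimates ran from -0.67 for Pecam1, an adhesion molecule of endothelial junctions, to 0.43 for Flt1, a receptor of vascular endothelial growth factor. The tight junction genes Cldn5 (-0.14 ± 0.21) and Ocln (-0.21 ± 0.39), and Ly6c1, a surface protein of endothelium (0.01 ± 0.14), had estimates smaller than their SE. Ocln was at 8 counts in IP of animal B, 0.142 CPM, and at 2.73 to 4.58 CPM in the other 6 IP libraries. Ly6c1 shares reads with near-identical relatives and is uncertain in level.

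Among the 8 mural genes, Rgs5 rose while Pdgfrb and Notch3 fell, with a class median of -0.46. Rgs5 (ENSMUSG00000026678.10, chr1:169655501-169695813, plus strand), whose start region is the first of those above, had 8.71, 8.27, 6.45 and 7.46 CPM in pre-IP of tau animals B, C, L and M and 8.70, 8.72 and 6.11 in EYFP animals H, I and K. Its IP values were 10.8, 9.06, 14 and 11.5 in the tau animals and 12.1, 13 and 15.4 in the EYFP animals. Every IP library was above every pre-IP library, which held for 2 of the 33 members in this direction and for 3.69% of all genes. The change was 0.71 ± 0.13 (SE, edgeR adjusted p = 0.00102), or 1.63-fold, and Rgs5 was also called in the 4 tau animals alone and in the 3 EYFP animals alone.

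Pdgfrb (ENSMUSG00000024620.11), the receptor through which pericytes are recruited, moved the other way. Its pre-IP values were 7.32, 7.96, 11.4 and 12.5 CPM in tau animals B, C, L and M and 9.77, 6.82 and 12.2 in EYFP animals H, I and K. In IP the values were 0.712, 3.93, 4.99 and 5.20 in the tau animals and 4.66, 2.90 and 6.52 in the EYFP animals. Here every IP library was below every pre-IP library, as for 5.77% of all genes, and Pdgfrb was the only member with that pattern. The change was -1.22 ± 0.32 (SE, edgeR adjusted p = 0.00785), 0.429 times the pre-IP level.

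Notch3 (ENSMUSG00000038146.8, chr17:32120820-32166852, minus strand) is the Notch receptor of vascular smooth muscle and pericytes. It had 7.83, 4.35, 9.17 and 9.59 CPM in pre-IP of tau animals B, C, L and M and 8.03, 8.32 and 8.63 in EYFP animals H, I and K. The IP held 1.16, 4.0, 4.2 and 3.73 in the tau animals and 5.70, 3.17 and 4.92 in the EYFP animals. It was lower in IP in 7 of 7 animals, and pre-IP of animal C lay within the IP range. The change was -1.05 ± 0.25 (SE, edgeR adjusted p = 0.0044). An antisense entry, Gm17276, covers 6.03% of its exonic bases and held 3.48 to 7.15 CPM, and the use of strand in counting is not given in the sources used here, so the level of Notch3 is uncertain.

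The contractile genes did not pass the test. Tagln was at 0.251, 0.212, 0.383 and 0.290 CPM in pre-IP of tau animals B, C, L and M and at 0.239, 0.301 and 0.347 in EYFP animals H, I and K. In IP it was at 0.374, 0.235, 0.414 and 0.708 in the tau animals and at 0.228, 0.373 and 0.494 in the EYFP animals. The fractions overlapped (0.52 ± 0.35, edgeR adjusted p = 0.283), and 62.42% of its exonic bases lie in the antisense entry Gm48529, so that its level is uncertain. Acta2 and Myh11, the myosin of smooth muscle, had estimates of -0.25 ± 0.23 and -0.67 ± 0.37. The estimates were -0.19 ± 0.20 for Vtn and -1.08 ± 0.58 for Anpep, the last with 0 counts in IP of animal B.

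Among the 10 fibroblast genes, Ogn and Dcn rose and 0 fell, with a class median of -0.23. Ogn (ENSMUSG00000021390.6, chr13:49608046-49624501, plus strand) encodes osteoglycin, a small proteoglycan of connective tissue. The pre-IP libraries had 3.43, 2.08, 1.97 and 1.77 CPM in tau animals B, C, L and M and 1.43, 2.37 and 2.81 in EYFP animals H, I and K. In IP there were 4.02, 4.44, 5.96 and 3.88 CPM in the tau animals and 5.18, 8.71 and 8.94 in the EYFP animals. The fractions did not overlap, and the lowest IP library was above the highest pre-IP library, animal B. The change was 1.37 ± 0.23 (SE, edgeR adjusted p = 0.000502), or 2.59-fold, and Ogn was called in each treatment group alone.

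Dcn (ENSMUSG00000019929.16, chr10:97479609-97518143, plus strand) encodes decorin, which binds collagen fibrils. Its pre-IP values were 21.1, 16.1, 12.9 and 14.3 CPM in tau animals B, C, L and M and 14.6, 11.8 and 20.3 in EYFP animals H, I and K. The IP values were 13.1, 17.8, 20.9 and 22.3 in the tau animals and 25.2, 25.2 and 37.9 in the EYFP animals. The 3 EYFP IP libraries were above all pre-IP libraries, and the IP of animal B was below its own pre-IP, so that 6 of 7 animals were higher in IP. The change of 0.55 ± 0.18 (SE, edgeR adjusted p = 0.0288) was lost without any 1 of animals H, I, L or M, with adjusted p from 0.0689 to 0.0802.

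The collagens were not called. Col1a1, Col1a2 and Col3a1 had estimates of -0.44 ± 0.22, -0.62 ± 0.24 and -0.39 ± 0.27 (edgeR adjusted p = 0.135, 0.0629 and 0.307). Col1a2, which pairs with Col1a1 in type I collagen, had 9.10, 8.31, 13 and 11.3 CPM in pre-IP of tau animals B, C, L and M and 9.58, 7.38 and 19 in EYFP animals H, I and K. In IP it had 3.38, 4.38, 7.50 and 7.27 in the tau animals and 7.13, 8.34 and 13.1 in the EYFP animals, with overlapping fractions. Lum, another small proteoglycan, was higher in 6 of 7 animals at 0.59 ± 0.28 (edgeR adjusted p = 0.127). Slc6a13, a transporter of GABA in meningeal cells, was at 23.4, 21.9, 24.7 and 24.9 CPM in pre-IP of tau animals B, C, L and M and at 27.9, 20.2 and 30 in EYFP animals H, I and K. Its IP values were 10.6, 11.6, 12.4 and 18.3 in the tau animals and 29.2, 11.8 and 28.6 in the EYFP animals. The 4 tau IP libraries and that of animal I were below every pre-IP library, and animals H and K were not (-0.51 ± 0.20, edgeR adjusted p = 0.0603). The estimate for Ptgds was -0.06 ± 0.18.

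**Figure D1:**
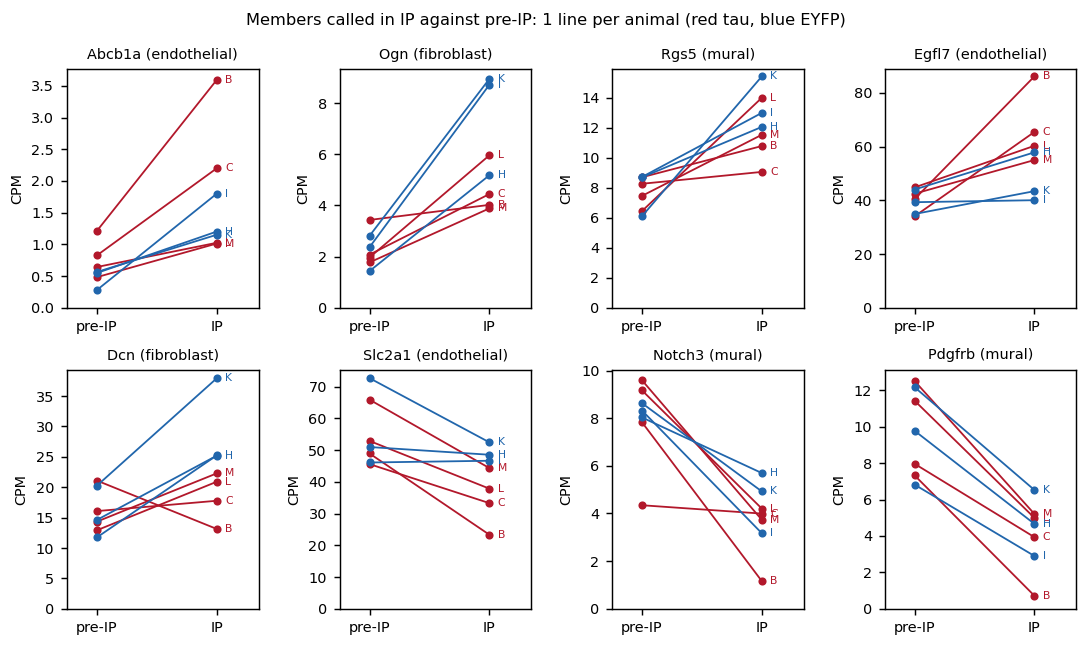
CPM of the 8 called members in pre-IP and IP, with 1 line for each of the 7 animals (red, 4 tau animals; blue, 3 EYFP animals) and an axis from 0. Abcb1a, Egfl7, Rgs5 and Ogn rise and Pdgfrb and Notch3 fall in every animal. After TMM scaling, which is not applied in the figure, Egfl7 was higher in 6 of the 7. Slc2a1 falls in all but animal I (46.1 and 46.7 CPM), and Dcn falls in animal B.

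With a replicate block for the animal, a paired fit, 32.6% of all 18792 genes were called, 2998 higher and 3121 lower. Of the 33 members, 13 were called there, 5 higher and 8 lower. That is a larger share than that of all genes, and the excess lay among the lower calls. The difference in share was not tested. The 13 were the 8 above and Col1a2, Esam, Mfsd2a, Pecam1 and Slc6a13, all 5 lower in IP. Across the 16 fits that used both treatments, 6 members were called in every one, Abcb1a, Egfl7, Rgs5 and Ogn higher and Pdgfrb and Notch3 lower. The share of all genes called in every fit was not computed.

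**Figure D2:**
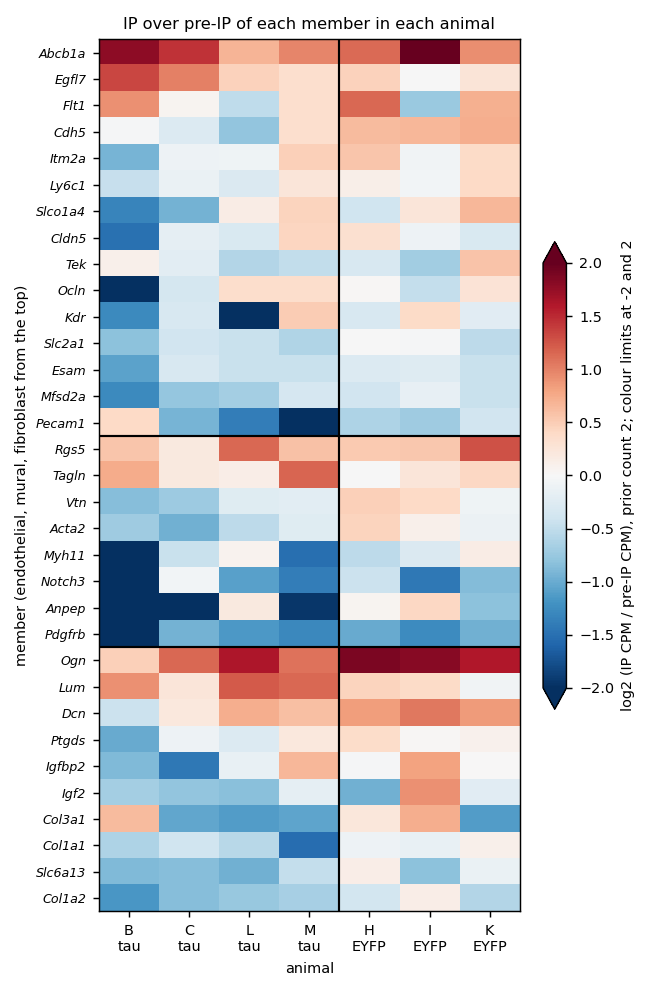
Log2 of IP CPM over pre-IP CPM (TMM scaling, prior count of 2) of all 33 members, grouped by cell class, in each animal. The columns of tau animals B, C, L and M hold 23, 25, 22 and 16 members below 0, against 15 to 16 in the 3 EYFP animals.

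The 33 genes did not follow a single pattern over animals. The ratio of IP to pre-IP was computed per animal on the log2 scale, and its median over the 33 was -0.81, -0.33, -0.31 and 0.20 in tau animals B, C, L and M and 0.06, 0.03 and 0.00 in EYFP animals H, I and K. The 3 EYFP animals were thus near 0, and the tau animals were spread over about 1 log2 unit, with animal B lowest and animal M highest. The endothelial medians were -0.81, -0.28, -0.44 and 0.34 in the tau animals and 0.02, -0.07 and 0.27 in the EYFP animals. The mural medians were -1.66, -0.58, -0.08 and -0.77 in the tau animals and 0.03, 0.17 and -0.11 in the EYFP animals. For fibroblast genes they were -0.65, -0.60, -0.41 and 0.01 in the tau animals and 0.18, 0.56 and -0.04 in the EYFP animals. The treatment groups overlapped in each of the 3 classes, with tau animal M within or above the EYFP range of the endothelial and fibroblast classes and tau animal L within that of the mural class. Group means ± SD over animals were -0.30 ± 0.48 (n = 4) and 0.08 ± 0.17 (n = 3) for endothelial, -0.77 ± 0.66 and 0.03 ± 0.14 for mural, and -0.41 ± 0.30 and 0.23 ± 0.30 for fibroblast genes in tau and EYFP animals. Without EYFP animal K the EYFP means were -0.02, 0.10 and 0.37. In 1 alternative, 8 members were left out as shared with other brain cells: Igf2, Igfbp2, Ptgds, Slc6a13, Slc2a1, Ocln, Itm2a and Ly6c1. This brought the fibroblast mean of the tau animals to -0.0019. The EYFP mean without them is not given here, so the gap between the groups cannot be read from that value.

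Lists of other cell types were measured in the same libraries. Mean medians in tau and EYFP animals were -0.51 and 0.11 for 10 astrocyte genes, -0.63 and -0.16 for 10 oligodendrocyte genes, -0.36 and 0.14 for 10 microglial genes, and -0.46 and 0.24 for 10 genes of choroid plexus and ependyma. They were -0.11 and 0.15 for 10 genes of neurons in general, 0.03 and 0.31 for 5 blood genes, and -0.19 and 0.55 for 7 pituitary genes. The noradrenergic medians, the targets of the IP, were 4.38, 3.38, 3.16 and 1.66 in tau animals B, C, L and M and 0.61, 0.74 and 0.78 in EYFP animals H, I and K. The animal with the highest noradrenergic median, B, had the lowest endothelial, mural and fibroblast medians. The tau animal with the lowest, M, had the highest endothelial and fibroblast medians among the tau animals, but the second lowest mural median. The part of noradrenergic RNA in the ratios of the vascular genes was not tested.

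**Figure D3:**
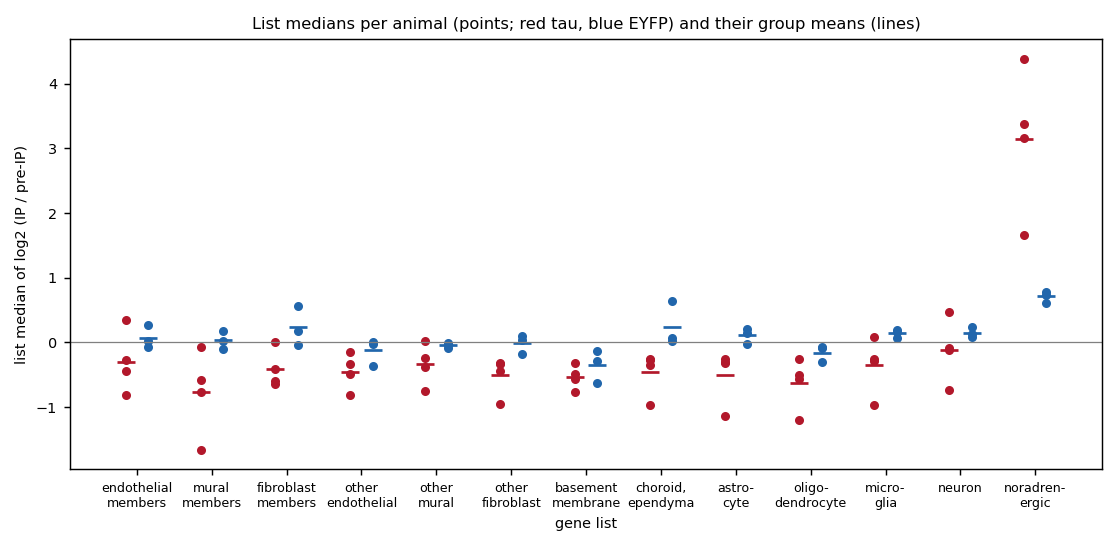
Median log2 ratio of IP to pre-IP over each gene list in each animal (points; red, tau; blue, EYFP), with the group means as lines. The noradrenergic list reaches 4.38 in animal B, and the endothelial, mural and fibroblast lists lie between -1.66 and 0.56.

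Further genes of the same cells were called at shares below that of all genes in the IP against pre-IP test. Of 29 other endothelial genes tested, Tfrc, the transferrin receptor, rose (0.60 ± 0.14, edgeR adjusted p = 0.00358) and 3 fell, among them Slc7a5, a carrier of large amino acids at the barrier (-0.73 ± 0.16, adjusted p = 0.00272), and Cd34, a surface sialomucin (-0.79 ± 0.21, adjusted p = 0.00944). Of 18 other mural genes, 0 rose and 3 fell, with Smtn, a smooth muscle protein, at -0.78 ± 0.15 (edgeR adjusted p = 0.00145) and Cspg4, the pericyte proteoglycan also made by oligodendrocyte precursors, at -0.64 ± 0.19 (adjusted p = 0.0183). Of 28 other fibroblast genes, Serpinf1, a secreted inhibitor of vessel growth, rose (0.72 ± 0.22, edgeR adjusted p = 0.0191), and 3 fell. Serpinf1 was higher in IP in 5 animals and lower in 2. Among the 3 that fell, Fmod, a collagen-binding proteoglycan, was at -0.69 ± 0.21 (edgeR adjusted p = 0.0207). The shares called were 13.8%, 16.7% and 14.3%, each below the 31% of all genes.

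Ligands and receptors that act on vessels were called in 19 of 40 genes (47.5%), against 31% of all genes, with 4 higher (10%, against 16.3%) and 15 lower (37.5%, against 14.7%). Angpt1, a ligand of the member Tek, rose by 0.99 ± 0.21 (edgeR adjusted p = 0.00236) and Pdgfd, a ligand of the member Pdgfrb, by 1.02 ± 0.22 (adjusted p = 0.00278), each in 7 of 7 animals. Tgfb3 and Wnt7b fell in 7 of 7 animals, by 0.99 ± 0.13 (edgeR adjusted p = 7.54e-05) and 1.01 ± 0.15 (adjusted p = 0.000239) on the log2 scale. Many of these genes are made by neurons and glia, so the list does not describe vessel cells alone. Of 13 basement membrane genes, 0 rose and 3 fell (23.1% called, against 31% of all genes), with Agrn at -0.61 ± 0.15 (edgeR adjusted p = 0.00525) and Col4a2 at -0.65 ± 0.19 (adjusted p = 0.0186).

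The comparison of tau IP with EYFP IP is the one the study was designed around. No member passed the test in it, and neither did any of the 19472 genes tested (0% called, smallest edgeR adjusted p among members 0.318). At an unadjusted p under 0.05 there were 6 members, against 12% of all genes. Of these 1 was higher and 5 were lower, against 7.93% and 4.06% of all genes. Fitted differences were negative for 29 of the 33 members, against 56.6% of all genes, with medians of -0.37 for endothelial, -0.42 for mural and -0.68 for fibroblast genes and -0.08 over all genes. The all-gene median was -0.18 with library totals in place of TMM scaling, and 29 members were negative there too. Positive were Egfl7, Abcb1a, Tagln and Lum. The 4 tau IP libraries were all below the 3 EYFP IP libraries for 5 members, Slc2a1, Vtn, Dcn, Col1a1 and Igf2, which is 15.2% of the members and 9.22% of all genes. They were all above for 0 members and for 6.36% of all genes.

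Vtn (ENSMUSG00000017344.4, chr11:78499091-78502324, plus strand), which encodes vitronectin and is strongly made by brain pericytes, had the smallest p of the members. In IP it was at 20.9, 19.2, 25.8 and 36.6 CPM in tau animals B, C, L and M and at 43.6, 40.6 and 58.8 in EYFP animals H, I and K. In pre-IP the values were 45.1, 33.4, 31.1 and 41.5 in the tau animals and 32.6, 29.9 and 60.1 in the EYFP animals. The groups did not overlap in IP and overlapped in pre-IP. The fitted difference in IP was -0.80 ± 0.24 (SE, edgeR adjusted p = 0.318), and -0.62 without EYFP animal K.

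Igf2 (ENSMUSG00000048583.16, chr7:142650766-142666816, minus strand), a growth factor made by meninges and choroid plexus, had the largest fitted difference in IP, -1.38 ± 0.45 (edgeR adjusted p = 0.319). Its IP values were 0.730, 1.24, 1.85 and 2.12 CPM in tau animals B, C, L and M and 2.21, 4.90 and 5.17 in EYFP animals H, I and K. Animal M lay just below animal H, and the groups did not overlap. Igfbp2 differed by -1.09 ± 0.40 (edgeR adjusted p = 0.344), with 30.1, 22.8, 46.1 and 77.3 CPM in the tau animals and 58.8, 105 and 136 in the EYFP animals, where animal M was above animal H. Col1a1, a chain of type I collagen, was at 2.17, 3.89, 3.35 and 2.24 CPM in the tau animals and 5.16, 4.43 and 8.0 in the EYFP animals (-0.92 ± 0.33, edgeR adjusted p = 0.342). For Dcn and Slc2a1, given above per library, the differences were -0.58 ± 0.23 and -0.41 ± 0.19 (edgeR adjusted p = 0.371 and 0.434). Egfl7 had a positive difference of 0.63 ± 0.23 (edgeR adjusted p = 0.342).

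Without EYFP animal K, 1 member had an unadjusted p under 0.05 in place of 6, against 8.7% of all genes, and 28 differences were negative. The differences were then -1.17 for Igf2, -0.80 for Igfbp2, -0.62 for Col1a1, -0.35 for Dcn, -0.36 for Slc2a1 and 0.57 for Egfl7. Without tau animal M, which had the weakest noradrenergic ratio of its group, 13 members had an unadjusted p under 0.05, against 17.1% of all genes, and 29 were negative. In the lists of other cells, 10 of 10 astrocyte, 10 of 10 microglial, 10 of 10 choroid plexus and ependymal, and 9 of 10 oligodendrocyte genes were negative in this comparison. So were 8 of 10 genes of neurons in general and 5 of 5 blood genes, whereas 11 of 11 noradrenergic and 6 of 7 pituitary genes were positive. The part of these other cells in the differences of the vascular genes was not tested.

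**Figure D4:**
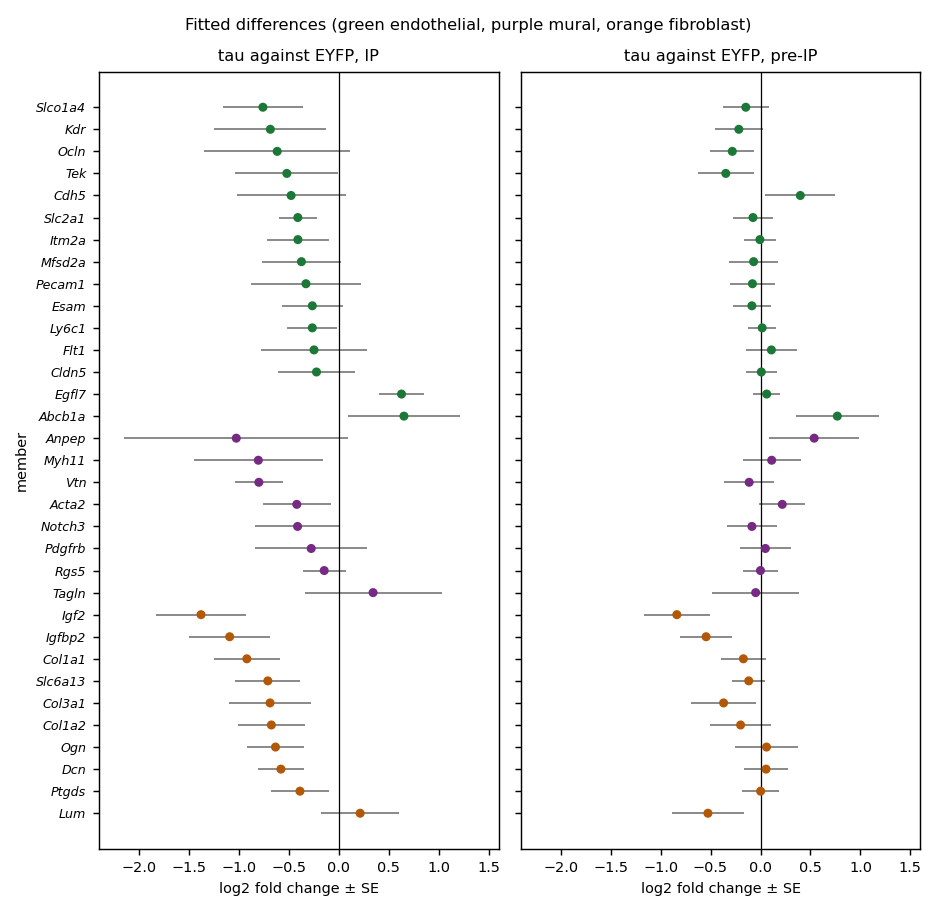
Fitted log2 fold change of tau against EYFP with its SE for the 33 members in IP and in pre-IP (green, endothelial; purple, mural; orange, fibroblast). In IP 29 estimates lie below 0 and in pre-IP 20, and none passed the test in either.

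The homogenates give the background of that comparison. No member was called in tau pre-IP against EYFP pre-IP, nor any of 19197 genes (0%), and 1 member had an unadjusted p under 0.05, against 2.84% of all genes. Of the 33 differences, 20 were negative, against 50.1% of all genes, and 8 were without animal K. The medians were -0.07 for endothelial, 0.02 for mural and -0.19 for fibroblast genes, and the groups overlapped for every member, whereas 1.33% of all genes were higher and 1.78% lower without overlap.

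Igf2 had the smallest p. It was at 1.42, 2.29, 3.41 and 2.37 CPM in pre-IP of tau animals B, C, L and M and 4.54, 2.51 and 5.80 in EYFP animals H, I and K. Tau animal L lay above EYFP animal I, so that the groups overlapped. The difference was -0.84 ± 0.33 (SE, unadjusted p = 0.0258 and adjusted p = 1.00 in edgeR's test), and -0.50 without animal K. Ttr, the choroid plexus transcript, was low in tau animals L and M, whereas Igf2 was lowest in animal B, where Ttr was highest at 1595 CPM. The part of choroid plexus RNA in the Igf2 difference was not tested. Within the Igf2 locus, 62.83% of its exonic bases lie in the same-strand entry Gm49394, which had 0 counts in every library, so that the level of Igf2 is uncertain.

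The interaction of treatment and fraction tests whether the IP to pre-IP ratio differed between tau and EYFP animals. No member was called, nor any of 20495 genes (0%), and 0 members had an unadjusted p under 0.05, against 5.97% of all genes. The estimates were negative for 30 of the 33 members, against 54.6% of all genes, with medians of -0.31 for endothelial, -0.48 for mural and -0.54 for fibroblast genes. Adjusted p in edgeR's test ran from 0.820 to 0.992. Egfl7 had the smallest p, with an estimate of 0.57 ± 0.28 (edgeR adjusted p = 0.820). With the replicate block its estimate was 0.56 (adjusted p = 0.587), and 3 of the 33 members had an unadjusted p under 0.05, against 8.51% of all genes. Without EYFP animal K, 0 members were called, 2 had an unadjusted p under 0.05 against 6.54% of all genes, 28 estimates were negative, and that of Egfl7 was 0.54. This comparison shares all its libraries with those above, so its signs are no separate evidence.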

How the data were processed

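Per the labels' protocols, polyadenylated RNA was amplified with SMART-Seq v4 and tagged with Nextera XT. FastQC, Trim Galore, STAR and featureCounts, with the builds GRCm38 and mm10, are named in the submitters' processing notes. Versions, strand settings and the treatment of multi-mapped reads are not given in the sources used here. The authors deposited whole-number counts per gene and library, not normalized. The deposited sample sheet gives an RNA integrity score, RNA concentrations, raw reads and GC percent. The deposited gene table gives other annotation (symbol, position and exonic length). The count table's header has 2 stray empty cells, so columns were read by position, which was checked by the tau construct counts of the sheet. Gene positions equalled GENCODE M21 for all 33 members.

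Counts were tested in R 4.3.3 with edgeR 4.0.16 (glmQLFit and glmQLFTest), with filterByExpr, TMM scaling and Benjamini-Hochberg adjustment over all genes at 0.05. The SE was the log2 fold change over the square root of F. IP was compared with pre-IP over 14 libraries with treatment as a term, and tau with EYFP within each fraction. Levels are CPM by library totals or RPKM by exonic length. Ratios per animal used TMM and a prior count of 2. Titles give the animal letter, which pairs the fractions. Deviations of the 2 libraries of an animal from their group means correlated at 0.147 to 0.359. The floor of 3 counts covers counting error only.

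The members and lists were chosen with earlier results of these data known. Values per library are given for the members with the 2 smallest p in each direction of each class in IP against pre-IP and with the smallest p in each other comparison. Igfbp2 and Col1a1 were added after their values were seen. On simulated counts, with 200 genes changed by 2 on the log2 scale, edgeR recovered 97% for IP against pre-IP (18792 genes). It recovered 79.5% for tau against EYFP in IP (19472), 98% in pre-IP (19197) and 77% for the interaction (20495). False calls made up 5.83%, 8.09%, 3.92% and 5.52% of the genes called, in the same order. Members differed by -1.38 to 0.65 in tau IP against EYFP IP, and recovery at sizes under 2 was not tested. In the measured counts of that comparison, 11 noradrenergic genes differed by 1.41 to 4.36 (median 2.81), and 0 were called. Alternatives were DESeq2 1.42.0 (size factors and Wald test), limma 3.58.1 voom, other count filters, leaving out each animal, the library-number range, the block, each treatment alone, and, chosen after seeing the data, library totals without scaling.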

Additional observations from a re-analysis of the deposited data

Results flagged for a closer look

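In the 4 tau IP libraries, 4 members had 1 library far from the other 3, among 69 groups of 4 checked. These groups were tau pre-IP and tau IP of each member and the class medians of the tau animals. All 4 found were in tau IP, and 3 of them were at animal B. Chance gives about 1 in 20 such groups if they are independent, but the groups share libraries. Pecam1 was at 4.47 CPM in animal B and at 1.11 to 1.5 in the others. Col3a1, a collagen chain of fibroblasts, was at 3.59 CPM in animal B and at 1.53 to 1.75 in the others. Notch3 was at 1.16 CPM in animal B and at 3.73 to 4.2 in the others. Flt1 was at 1.18 CPM in animal L and at 2.88 to 3.14 in the others. None of the 33 members moved one way in every tau animal and the other way in every EYFP animal.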

How the results depend on the processing

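The 8 members called in IP against pre-IP became 13 with the animal as replicate block and 2 in the EYFP animals alone (Ogn and Rgs5), and other settings gave 6 to 12. The shares of all genes called were 31%, 32.6% and 6.38% in these 3 fits, and 15.2% to 39.1% in the other settings. Leaving out 1 animal gave 6 to 9 members, and 22.8% to 31.4% of all genes. The number called among the members thus has to be read beside the share of all genes in the same setting. The counts of 0 members in the other comparisons stayed at 0 under each setting run, with the smallest adjusted p for tau IP against EYFP IP from 0.0637 (DESeq2 Wald test) to 0.636 (edgeR without animal H). Among all genes in that comparison, 411 were called by the Wald test, 202 with all 14 libraries in 1 fit, 128 without animal M and 113 with no filter. For the interaction these were 52 by the Wald test, 56 without animal M and 67 with no filter, and in pre-IP 44 with no filter and 1 each without animal B or K. Taking the mean over the class in place of the median brought the mural value of the EYFP animals from 0.03 to -0.11. Without the 8 shared members the fibroblast value of the tau animals was -0.0019. No value reversed a call. Depth limits Anpep, with 0 to 42 counts per library.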
